A study of Papio anubis and Macaca fascicularis and Castor canadensis with 48 samples.

Results

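The proximal tubule is the stretch of the nephron that follows the glomerulus. Its cells take back filtered sugar, phosphate, lactate, water and protein from the forming urine, and they secrete organic anions from blood into it. A short set of transporters, endocytic receptors and enzymes marks these cells in the mammalian kidney. The set described here holds 10 such genes of the 16816 in the count table, taken by name from a list of proximal tubule genes and not by a threshold on their values: Slc34a1, Lrp2, Cubn, Slc22a6, Slc22a8, Slc22a12, Slc5a2, Slc5a12, Miox and Aqp1. The table lists genes by mouse Ensembl identifier, and all 10 identifiers had counts.

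The samples were bulk RNA-seq libraries of organ tissue from young adult, wild-type males of mammals with different lifespans. Kidney was represented by 6 olive baboons (Papio anubis), 5 long-tailed macaques (Macaca fascicularis) and 1 American black bear (Ursus americanus). Liver came from 6 baboons, 6 macaques, 1 bear, 2 beavers (Castor canadensis), 2 chipmunks (Tamias sibiricus), 2 sugar gliders (Petaurus breviceps), 1 tube-nosed bat (Murina leucogaster) and 1 white-footed mouse (Peromyscus leucopus). Brain came from 6 baboons, 2 beavers and 1 white-footed mouse, and cerebellum from 6 macaques. Baboon, macaque and beaver libraries belong to one collection of 39, and the other 9 to an earlier one, so the bear, chipmunk, sugar glider, bat and mouse values differ from the rest in collection as well as in species.

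Library totals ranged from 6326129 to 26801829 counts, and levels are given in CPM, a gene's count scaled to the total of its library. Counts were nearly always even, so each sequenced read pair was taken to have entered the table as 2 counts. CPM carries no gene length, so a gene is compared across samples and not with another gene. Reads of 8 species were counted against 1 list of mouse genes by a route not given in the sources used here, so a difference between species can include a difference in how well a gene's reads were assigned. Fold changes between groups are on the log2 scale, from edgeR's quasi-likelihood test with TMM scaling, and calls are at a Benjamini-Hochberg adjusted p under 0.05 over all genes tested.

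The kidneys stood apart from every other organ for nearly the whole set. The 10 genes together took 1.23% ± 0.312 of all counts in baboon kidneys (SD, n = 6), 1.37% ± 0.244 in macaque kidneys (SD, n = 5) and 1.62% in the bear kidney. They took 0.00224% ± 0.000363 in baboon livers and 0.00330% ± 0.00171 in macaque livers (SD, n = 6 each). For 8 of the 10 genes, all 12 kidneys had a higher CPM than all 36 other libraries, a pattern found in 1.91% of 16244 genes with counts. The exceptions were Slc22a8, whose lowest kidney had 380.5 CPM against 512 CPM in the bear liver, and Slc22a12, whose lowest kidney had 222.9 CPM against 233 CPM in a beaver liver. With TMM-scaled CPM the count was 6 of 10, against 1.34% of genes, because the lowest kidneys for Slc22a6 and Miox then fell below the beaver livers. In a bulk organ, fewer cells of a type and less RNA per cell cannot be told apart.

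**Figure D1:**
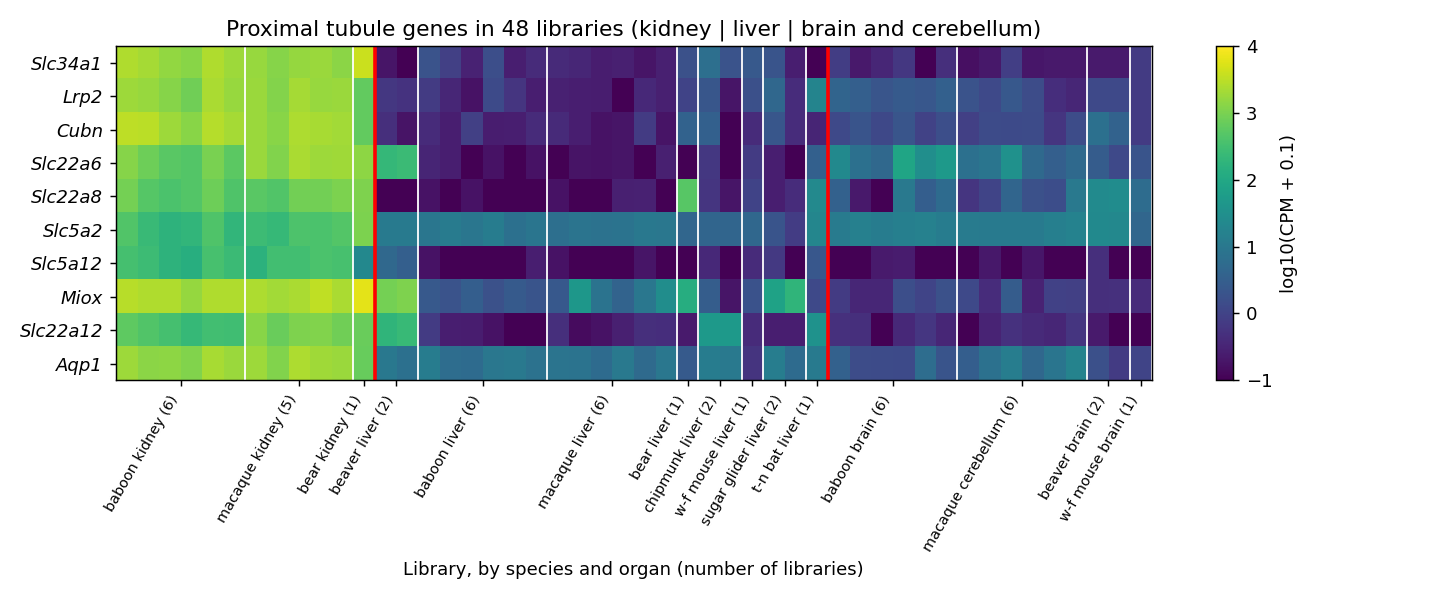
Level of each of the 10 genes (rows) in each of the 48 libraries (columns, grouped by species and organ, kidneys left, then livers, then brain and cerebellum), coloured by log10(CPM + 0.1). The 12 kidney columns are high in nearly all rows, and outside kidney the beaver livers stand out for Miox, Slc22a6 and Slc22a12 and the bear liver for Slc22a8.

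All 10 genes were called higher in kidney than in liver in baboon, where 35.3% of 13890 genes were called higher and 31.2% lower. The same held in macaque, where 32.7% of 13927 genes were called higher and 30.4% lower. All 10 were also called higher in kidney than in baboon brain, where 39.1% of genes were called higher and 38.2% lower, and than in macaque cerebellum, where 37.8% were called higher and 37.9% lower. The median log2 difference of the 10 genes was 10.09 for baboon kidney against liver, 9.79 for baboon kidney against brain, 11.77 for macaque kidney against liver and 10.84 for macaque kidney against cerebellum. Over all genes tested these medians were 0.06, 0.02, 0.02 and -0.02. The genes are known kidney genes, and those near 0 elsewhere passed the filter on low counts through the kidneys alone, so their shared direction follows from the choice of the list.

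**Figure D2:**
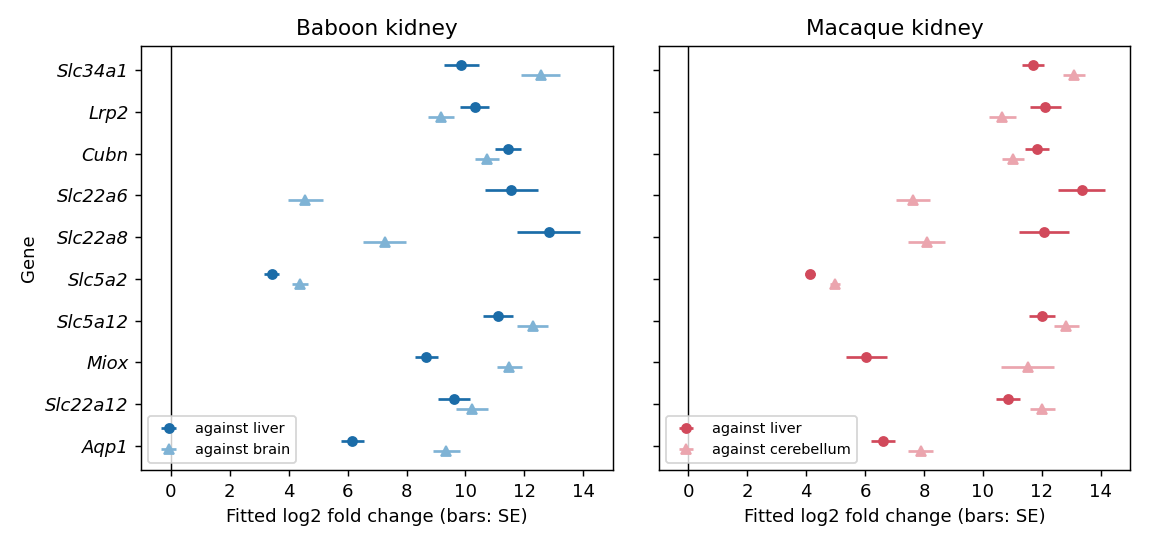
Fitted log2 fold change (x axis, edgeR, bars for standard errors) of each gene in kidney against liver (circles) and against brain or cerebellum (triangles), in baboon (left) and macaque (right). All points lie to the right of 0, and Slc5a2 has the smallest kidney-liver difference in both species, 3.43 in baboon and 4.12 in macaque.

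Slc34a1 (ENSMUSG00000021490) encodes NaPi-IIa, the sodium-phosphate cotransporter of the brush border. Its level in baboon kidneys ran between 1306 and 2582 CPM with a median of 2013 CPM, against 0.161 to 1.84 CPM with a median of 0.553 CPM in baboon livers. Macaque kidneys had 1717, 1237, 1641, 1747 and 1369 CPM, against 0.0913 to 0.298 CPM in macaque livers. No liver of either primate came near the lowest kidney. The log2 difference from liver was 9.87 ± 0.58 in baboon (SE, adjusted p = 5.37e-11, edgeR) and 11.69 ± 0.37 in macaque (SE, adjusted p = 6.05e-14, edgeR). Against macaque cerebellum it was 13.08, or 13.97 without cerebellum replicate 3, which alone had 0.742 CPM.

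Lrp2 (ENSMUSG00000027070) and Cubn (ENSMUSG00000026726) encode megalin and cubilin, the partner receptors by which tubule cells take up filtered proteins and vitamin carriers. Lrp2 ran between 828 and 2282 CPM in baboon kidneys with a median of 1669 CPM, against 0.0778 to 1.21 CPM in baboon livers. Cubn ran between 1308 and 3111 CPM with a median of 2437 CPM in baboon kidneys, against 0.152 to 0.778 CPM in baboon livers. Neither receptor's ranges came near each other between the organs. Lrp2 was higher in kidney than in liver by 10.31 ± 0.48 on the log2 scale in baboon (adjusted p = 2.25e-12, edgeR) and by 12.12 ± 0.51 in macaque (adjusted p = 1.31e-12, edgeR). For Cubn the differences were 11.44 ± 0.43 in baboon and 11.84 ± 0.40 in macaque (adjusted p = 2.00e-13 and 1.14e-13, edgeR). Macaque kidneys averaged 1709 ± 326 CPM of Lrp2 and 1952 ± 442 CPM of Cubn (SD, n = 5), against 0.159 ± 0.0889 and 0.226 ± 0.219 CPM in macaque livers (SD, n = 6).

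Slc22a6 (OAT1, ENSMUSG00000024650) and Slc22a8 (OAT3, ENSMUSG00000063796) are basolateral exchangers that draw organic anions, many drugs among them, from blood into the tubule cell, and Slc22a12 (URAT1, ENSMUSG00000061742) is the apical urate exchanger. The genes of OAT1 and OAT3 are next to each other in the RefSeq olive baboon annotation (Panubis1.0). Slc22a6 in baboon kidneys lay between 452 and 1262 CPM with a median of 670.5 CPM, against 0 to 0.235 CPM in baboon livers, a log2 difference of 11.56 ± 0.89 (SE, adjusted p = 1.97e-09, edgeR). Macaque kidneys had 1808, 1108, 2297, 1815 and 1959 CPM, against 0 to 0.174 CPM in macaque livers, a log2 difference of 13.35 ± 0.80 (SE, adjusted p = 1.23e-10, edgeR). The gene was thus close to 0 in the livers of both primates. Slc22a8 ran between 380.5 and 902 CPM in baboon kidneys. The 6 baboon livers together held 4 counts of it, which puts the TMM-scaled kidney-to-liver ratio at 8272, and the 95% counting interval at 2290 to 68308. Slc22a12 ran between 222.9 and 563 CPM in baboon kidneys, against 0 to 0.628 CPM in baboon livers, and its log2 difference of 9.60 ± 0.54 became 10.71 without baboon liver replicate 1, the liver with the highest value.

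Slc5a2 (SGLT2, ENSMUSG00000030781) carries filtered glucose into the tubule cell, and Slc5a12 (ENSMUSG00000041644) is a low-affinity sodium-lactate cotransporter of the same family. Slc5a2 had the smallest kidney-liver difference of the set, 3.43 ± 0.25 on the log2 scale in baboon (adjusted p = 9.40e-10, edgeR) and 4.12 ± 0.18 in macaque (adjusted p = 1.41e-12, edgeR). Baboon kidneys ran between 172 and 435 CPM with a median of 223 CPM, against 6.92 to 12.3 CPM with a median of 9.02 CPM in baboon livers. It had counts in all 36 other libraries, at 0.666 to 23.3 CPM. Slc5a12 ran between 138 and 347 CPM in baboon kidneys, while 4 of 6 baboon livers and 4 of 6 baboon brains held no count. Its TMM-scaled kidney-to-liver ratio was 2397 in baboon, with a 95% counting interval of 820.1 to 11621, and 4606 in macaque, with an interval of 1275 to 38037. Ratios of raw CPM are larger, since TMM scaling raises liver levels relative to kidney. These intervals hold counting error alone and not the spread between libraries. They can also be too narrow, because amplified reads can stem from the same molecule.

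Miox (ENSMUSG00000022613) opens the breakdown of myo-inositol, a reaction for which the kidney cortex is the classic site, and Aqp1 (ENSMUSG00000004655) is the water channel of the proximal tubule and thin descending limb, also present on red blood cells and endothelium. Miox ran between 1609 and 2875 CPM in baboon kidneys with a median of 2520.2 CPM, against 1.67 to 3.07 CPM in baboon livers, a log2 difference of 8.68 ± 0.38 (SE, adjusted p = 9.20e-13, edgeR). In macaque the difference was 6.04 ± 0.70 (SE, adjusted p = 6.91e-07, edgeR), or 6.64 without macaque liver replicate 2. Kidney levels were close in the 2 species, and macaque livers held more Miox than baboon livers, as described further on. Aqp1 ran between 1137 and 2234 CPM in baboon kidneys, against 5.60 to 12.2 CPM in baboon livers, a log2 difference of 6.16 ± 0.39 (SE, adjusted p = 1.50e-10, edgeR). In macaque it averaged 1826 ± 462 CPM in kidneys (SD, n = 5) and 7.83 ± 2.06 CPM in livers (SD, n = 6).

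The kidney libraries of a species differed from each other in the overall level of the set, though not for every gene. Baboon kidney replicate 4 was the lowest of 6 for 8 genes and below the species mean for all 10, at 0.661 of the mean level, and replicate 3 was lowest for the other 2. Replicate 1 was highest for 6 genes and replicate 5 for 4, at 1.43 and 1.32 of the mean level. In macaque, kidney replicate 2 was the lowest of 5 for 9 genes, at 0.729 of the mean level. Many of the genes thus ranked the libraries alike, with exceptions in macaque, where replicate 1 was the highest for Slc22a12 and the lowest for Slc5a12. The median SD of log2 CPM over the 10 genes was 0.504 in baboon kidneys and 0.229 once each library's mean over the set was taken out. In macaque kidneys it was 0.374 and 0.222, but the SD of Slc5a12 was 0.480 before and 0.485 after, that of Slc34a1 0.220 and 0.211, and that of Slc22a12 0.355 and 0.324. The mean taken out is that of the same 10 genes, so part of the drop in the median SD follows by construction. Other sets of genes were not treated this way. Of the 2065 other genes with at least 100 CPM in baboon kidneys, 6.88% had an SD as large as the set's median, and in macaque 13.6% of 1999 did. Which part of the kidney was sampled is not given in the labels, and its share in this spread was not tested.

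**Figure D3:**
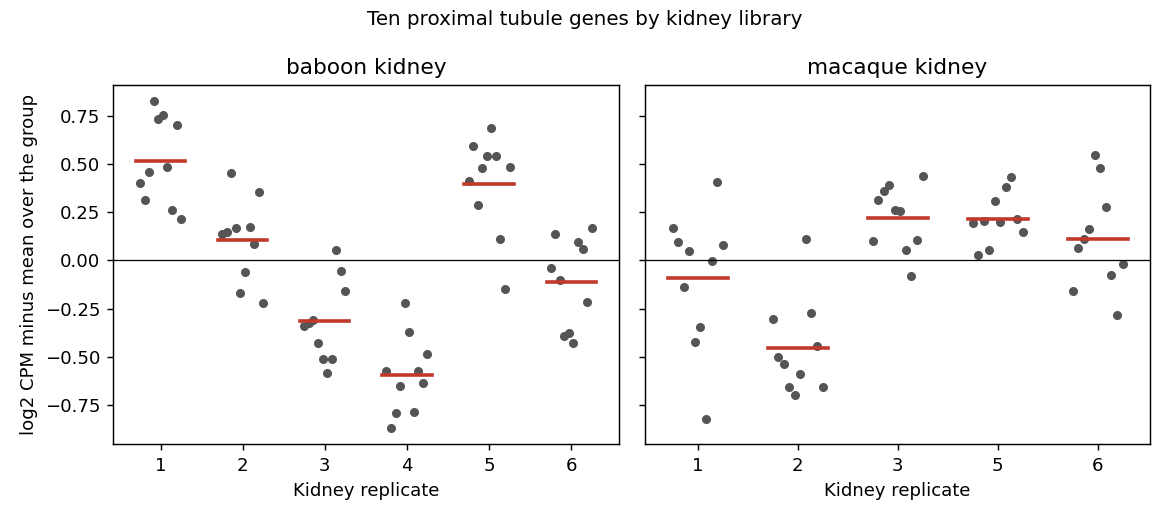
Deviation of each gene (points) from its mean log2 CPM in the species (y axis) in each baboon and macaque kidney replicate (x axis), with red bars for the mean of the 10 genes. Baboon replicate 4 lies below 0 for all 10 genes, replicate 1 lies above 0 for all 10, and macaque replicate 2 lies below 0 for 9 of 10.

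**Figure D4:**
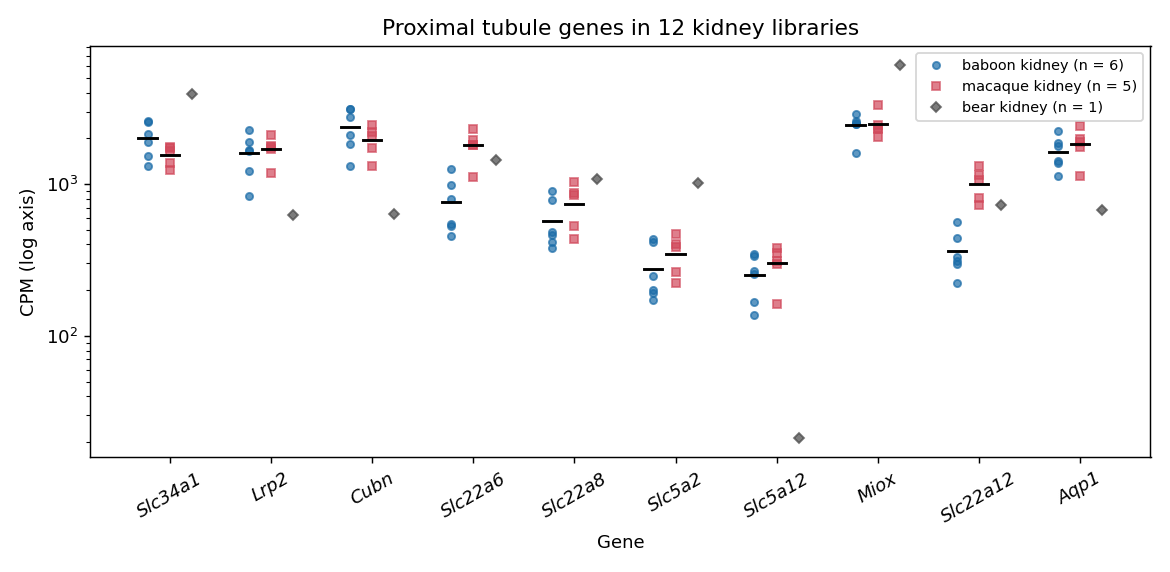
CPM of the 10 genes in each kidney library of baboon (n = 6), macaque (n = 5) and bear (n = 1) on a log axis, with points for libraries and black bars for the means of baboon and macaque. Slc22a12 is the one gene whose baboon points all lie below the macaque points, and the bear point is far below both for Slc5a12.

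Baboon kidneys had lower levels of the organic anion and urate transporters Slc22a6 and Slc22a12 than macaque kidneys, and 8 genes were not called. Of all 13082 genes tested, 15.6% were called lower in baboon and 15.3% higher, so 2 lower of 10 is near the background. Slc22a12 lay between 222.9 and 563 CPM in baboon kidneys with a median of 323 CPM, against 1305, 722, 1059, 1144 and 809 CPM in macaque kidneys. No baboon kidney reached the lowest macaque kidney, and the log2 difference was -1.53 ± 0.24 (SE, adjusted p = 0.000653, edgeR). Slc22a6 averaged 762 ± 317 CPM in baboon kidneys (SD, n = 6) and 1797 ± 433 CPM in macaque kidneys (SD, n = 5), and the highest baboon kidney, 1262 CPM, exceeded the lowest macaque kidney, 1108 CPM. Its log2 difference was -1.28 ± 0.28 (SE, adjusted p = 0.00493, edgeR), and with all 48 libraries in 1 fit the adjusted p was 0.0632. None was called higher in baboon, also at an unadjusted p under 0.05 and with DESeq2. Differences of the 8 genes not called ran between -0.42 for Slc22a8 and 0.32 for Slc34a1, with adjusted p of 0.242 or more.

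The same 2 genes stood apart when each library's mean over the set was taken out, an alternative added after the data were seen. Relative to that mean, on the log2 scale, Slc22a6 was at -0.27 ± 0.20 in baboon kidneys and 0.67 ± 0.17 in macaque kidneys. Slc22a12 was at -1.30 ± 0.31 in baboon kidneys and -0.16 ± 0.32 in macaque kidneys (SD, n = 6 and 5). For both, every baboon value lay below every macaque value, which 1.39% of 12413 genes showed. The shares over all genes given here are not a like-for-like background. The mean taken out is that of the 10 genes, so it removed their shared spread and not that of other genes. Slc34a1 and Cubn lay entirely above, as did 8.26% of genes, and since the mean contains all 10 genes, a low value in some raises the rest.

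The bear kidney had no replicate and so no test, and its ratios are of CPM without TMM scaling. All 10 genes were higher in it than in the bear liver, and 9 of 10 by at least 16-fold, against 7.4% of 12788 genes. Slc34a1 had 3892 CPM in the kidney and 1.605 CPM in the liver, a ratio of 2426 (95% counting interval 1388 to 4695). Slc22a6 had 1435 CPM in the kidney and no count in the liver, at least 3576-fold higher against a floor of 3 read pairs. The exception was Slc22a8, with 1077 CPM in the kidney and 512 CPM in the liver (95% exact interval 496 to 529 CPM), a ratio of 2.10 (interval 2.02 to 2.19). Slc5a12 had 21.2 CPM in the bear kidney (interval 17.97 to 24.8 CPM), against 252 ± 84.9 CPM in baboon kidneys and 300.3 ± 82.7 CPM in macaque kidneys (SD, n = 6 and 5). In the opposite direction, Miox had 6119 CPM in the bear kidney, against 2434 ± 429 CPM in baboon kidneys and 2483 ± 486 CPM in macaque kidneys.

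Outside the kidney, beaver liver carried 3 of the genes at levels far above those of any other liver, namely Miox, Slc22a6 and Slc22a12. The beaver livers had 885 and 1069 CPM of Miox, against 0.382 and 0.394 CPM in beaver brains and no more than 188 CPM in any other liver. Slc22a6 had 210.2 and 259 CPM in beaver livers, against 2.74 and 1.18 CPM in beaver brains and no more than 3.36 CPM in any other liver. Slc22a12 had 184.9 and 233 CPM in beaver livers, against at most 48.9 CPM in any other liver. The beaver livers were alike for all 3 genes and overlapped no other liver. Slc5a12 was also above all 19 other livers, at 4.72 and 3.22 CPM. These 4 of 10 genes compare with 5.54% of 15792 genes for which both beaver livers exceeded all others, and the same 4 genes did so in TMM-scaled CPM, against 5.94% of genes. The phosphate transporter and the receptors did not share this: the beaver livers had 0.0926 and 0 CPM of Slc34a1, 0.556 and 0.435 CPM of Lrp2, and 0.370 and 0.0871 CPM of Cubn. Beaver liver was singled out for Miox when the set was defined. Miox among the 4 genes above, and its calls below, are therefore not independent evidence. No beaver kidney was analysed here.

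**Figure D5:**
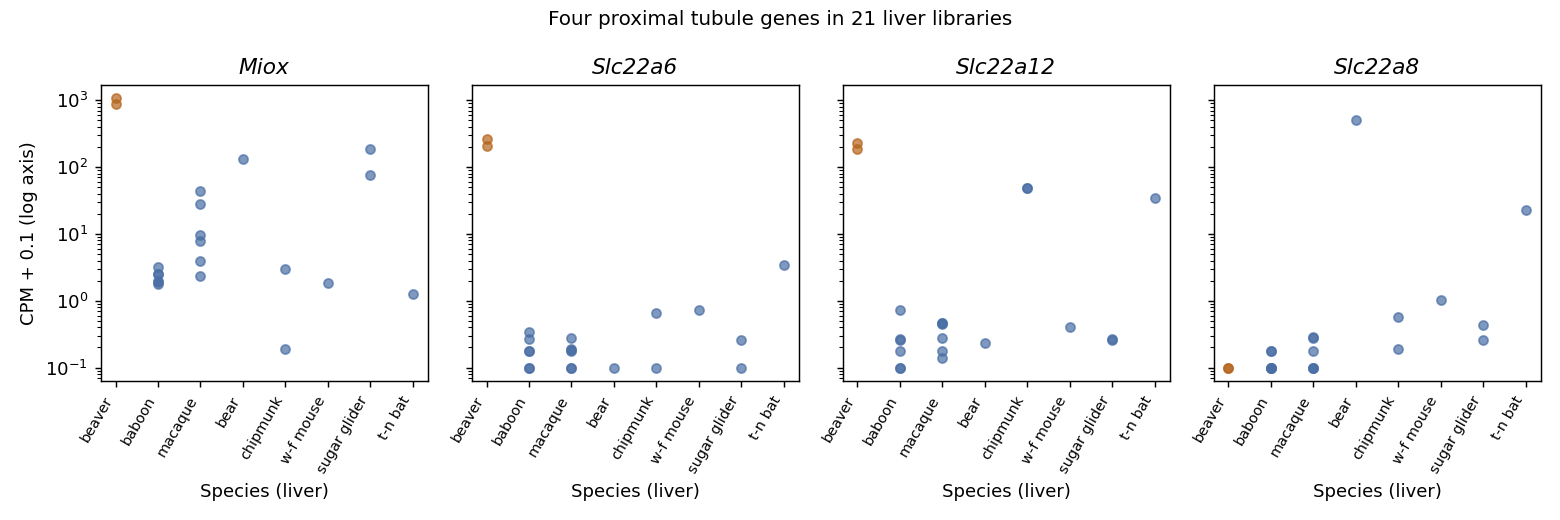
CPM + 0.1 (log axis) of Miox, Slc22a6, Slc22a12 and Slc22a8 in each of the 21 liver libraries (points), by species. The 2 beaver livers, in orange, lie above all other livers for the first 3 genes, and the bear liver, at 512 CPM, lies above all others for Slc22a8.

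Against the 12 primate livers, the 4 genes were called higher in beaver liver and none lower, where 25.3% of 14371 genes were called higher and 26.5% lower. At an unadjusted p under 0.05, 1 gene was lower, and DESeq2 called 1 lower. The log2 differences were 11.33 ± 0.44 for Slc22a6 (adjusted p = 3.71e-12, edgeR), 9.91 ± 0.43 for Slc22a12 (adjusted p = 1.41e-11, edgeR) and 7.27 ± 0.63 for Miox (adjusted p = 6.57e-08, edgeR). Slc5a12 differed by 6.60 ± 0.88 (adjusted p = 9.54e-06, edgeR). Against the livers of all 7 other species, 5 genes were called higher and 1 lower, where 29.5% of genes were called higher and 14.9% lower. The fifth was Slc5a2, by 0.95 ± 0.24 (adjusted p = 0.00345, edgeR), and the lower one was Slc22a8 (adjusted p = 0.000395, edgeR). Slc5a2 was at 11.5 and 11.4 CPM in the beaver livers, below the 19.4 CPM of the bat liver. Against primate livers it was not called (adjusted p = 0.392, edgeR). Slc22a8 was at 512 CPM in the bear liver and 22.6 CPM in the bat liver, 1 library each. Every other liver group but beaver averaged 0.936 CPM or less, and against primate livers Slc22a8 was not called (adjusted p = 0.248, edgeR). Beaver and chipmunk are both rodents, and against chipmunk liver 5 genes were called higher and 2 lower, where 20.5% and 20.1% of genes were. Slc22a12, with 48.2 and 48.9 CPM in chipmunk livers, was higher in beaver by 2.27 ± 0.63 (adjusted p = 0.00910, edgeR). That call was lost without beaver liver replicate 2, without either chipmunk liver and with DESeq2. Its adjusted p was then 0.0515 to 0.102. The call of Slc5a12 as higher was lost without beaver liver replicate 1, without chipmunk liver replicate 2 and with DESeq2, with adjusted p of 0.0624, 0.128 and 0.0539. The call of Slc22a8 as lower was lost without either beaver liver, without chipmunk liver replicate 1 and with DESeq2, with adjusted p of 0.141, 0.149, 0.256 and 0.0696. It was also lost in 1 fit of all 48 libraries, with an adjusted p of 0.296, and with upper-quartile factors, with 0.0508.

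In the beaver itself, liver had 5 genes called higher and 2 lower than brain among 9 tested, where 29.3% of 13309 genes were called higher and 35.2% lower. Miox, Slc22a12 and Slc5a12 passed the filter on low counts through the livers alone, and Slc22a8 and Cubn through the brains alone. The direction of these calls therefore followed from the filter. The OAT pair went in opposite directions. Slc22a6 was higher in liver by 8.27 ± 0.49 on the log2 scale (adjusted p = 0.000201, edgeR), or 9.00 without beaver brain replicate 1. Slc22a8 had no count in either beaver liver, a level of up to 0.135 CPM at a floor of 3 read pairs over both, and 24.5 and 26.6 CPM in beaver brains, so after TMM scaling it was at least 73.2-fold lower in liver (adjusted p = 0.000493, edgeR). Cubn was the other gene called lower in liver, by a log2 difference of -3.14 ± 0.77 (adjusted p = 0.0192, edgeR). Without brain replicate 1 or 2 its adjusted p was 0.135 or 0.0646, and the difference was -4.45 without liver replicate 1 and -2.45 without liver replicate 2.

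Miox also differed between the livers of the 2 primates, with overlapping ranges. Macaque livers varied widely, with 2.24, 43.6, 7.88, 3.79, 9.49 and 28.1 CPM in replicates 1 to 6. Baboon livers ran between 1.67 and 3.07 CPM, so the ranges overlapped at the lowest macaque liver. Baboon liver was lower by 2.70 on the log2 scale, written as -2.70 ± 0.63 (SE, adjusted p = 0.00759, edgeR), or -2.10 without macaque liver replicate 2. Only 3 of the 10 genes had enough liver counts to be tested, Miox being the 1 called lower and none higher, where 12.5% of 11948 genes were called lower and 12.3% higher. No tested gene was higher at an unadjusted p under 0.05, and DESeq2 called 1 higher. The kidneys differed by -0.08 ± 0.17. The kidney-liver difference was therefore larger in baboon than in macaque by 2.65 ± 0.69 (SE, adjusted p = 0.0150, edgeR), the 1 gene of 10 called, where 5.21% of 13600 genes were called higher and 4.8% lower. None of the 10 was called the other way by edgeR, while 2 had an unadjusted p under 0.05 in that direction and DESeq2 called 2. With the animal number as a replicate block this was 2.25 with an adjusted p of 0.0552, and without macaque liver replicate 2 it was 2.03 with an adjusted p of 0.0301. The range of adjusted p over all alternatives was 0.00125 to 0.0552. In the macaque livers with the most Miox, replicates 2 and 6, Slc34a1 was at 0.246 and 0.174 CPM and Lrp2 at 0.164 and 0.174 CPM, against 0.0913 to 0.298 CPM of Slc34a1 and 0 to 0.274 CPM of Lrp2 in the other 4 macaque livers.

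The remaining livers each carried a few of the genes. Sugar glider livers had 76.0 and 188 CPM of Miox. The bear liver had 133 CPM of Miox (95% exact interval 125 to 141 CPM) beside its Slc22a8. The bat liver had 35.0 CPM of Slc22a12, 22.6 CPM of Slc22a8, 19.4 CPM of Slc5a2 and 17.8 CPM of Lrp2. Their exact intervals were 29.6 to 41.0, 18.4 to 27.6, 15.5 to 24.1 and 14.1 to 22.3 CPM. Chipmunk liver replicate 1 had more of the receptors than replicate 2, with 2.05 against 0.0897 CPM of Lrp2 and 3.28 against 0 CPM of Cubn. Sugar glider liver replicate 1 likewise had 4.51 against 0.333 CPM of Lrp2. In the white-footed mouse, no gene differed 16-fold between liver and brain. Slc22a8 was at 0.936 CPM in its liver and 5.69 CPM in its brain, a ratio of 0.164 (95% counting interval 0.0534 to 0.432), and the intervals of the other ratios that could be formed included 1.

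In brain the organic anion transporters varied widely between libraries. In baboon brains Slc22a6 had a lowest value of 4.73, a median of 26.5 and a highest value of 85.5 CPM, in replicate 4, and Slc22a8 had 0, 3.28 and 10.6 CPM. Replicates 4 and 6 were the highest for both genes and replicates 2 and 3 the lowest. In macaque cerebellum Slc22a6 was highest in replicate 3, at 34.1 CPM against a median of 6.07 CPM, and Slc22a8 in replicate 6, at 10.4 CPM against a median of 1.55 CPM. The highest library was thus not the same for both genes there. OAT1 and OAT3 are also known from the choroid plexus and, for OAT3, brain capillaries, and the amount of such tissue in these pieces was not tested. Kidney was higher than baboon brain by 4.56 ± 0.59 for Slc22a6 and 7.26 ± 0.73 for Slc22a8, the second being 7.90 without brain replicate 4 (adjusted p = 1.08e-06 and 3.43e-08, edgeR). Kidney was higher than macaque cerebellum by 7.62 ± 0.58 for Slc22a6, or 8.47 without cerebellum replicate 3, and by 8.08 ± 0.64 for Slc22a8, or 8.93 without cerebellum replicate 6.

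Liver and brain of the primates differed in both directions. Baboon liver against brain gave 4 genes called higher and 3 lower, where 40% of 13890 genes were called higher and 42.4% lower. Macaque liver against cerebellum gave 5 higher and 3 lower, where 39.8% and 42.1% of genes were. The macaque call of Slc22a12 was lost in many of the alternative fits, as given below. Slc22a6 was lower in liver by 6.99 in baboon, a log2 difference of -6.99 ± 0.85 (adjusted p = 3.52e-07, edgeR), and its macaque difference was -5.72 ± 0.76 (adjusted p = 1.66e-06, edgeR), or -4.88 without cerebellum replicate 3. Slc5a2 was called higher in liver by 0.96 in baboon and 0.86 in macaque, but in CPM it was lower in liver, at 9.68 ± 2.09 in baboon livers and 13.5 ± 1.51 in baboon brains, and 8.39 ± 1.26 in macaque livers and 12.7 ± 2.22 in macaque cerebella (SD, n = 6 each). Its direction between these organs therefore depended on the scaling. The same was true in macaque of 3 more of the 5 genes called higher in liver. In CPM, Aqp1 averaged 7.83 ± 2.06 in macaque livers and 8.93 ± 5.31 in cerebella, Slc34a1 0.190 ± 0.0727 in livers and 0.208 ± 0.262 in cerebella, and Slc22a12 0.230 ± 0.151 in livers and 0.273 ± 0.168 in cerebella (SD, n = 6 each). Miox alone of the 5 was higher in liver on both scales.

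Across the 15 groups of species and organ, the log2 level of each gene was set beside the mean of the other 9. Pearson's r was 0.753 for Slc22a8, 0.793 for Miox, 0.834 for Slc22a12 and 0.868 for Slc22a6, and between 0.913 and 0.954 for the remaining 6. These values describe 15 means that share libraries between genes. The genes were chosen as kidney genes, so the contrast of kidney with the other organs raises every r. No r of other genes was computed for comparison. Markers of other kidney segments and of blood could not be matched to rows, since the names of 159 further genes could not be paired with identifiers from the tables used here.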

How the data were processed

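Bulk RNA-seq libraries of kidney, liver, brain and cerebellum were measured in 48 organ samples of 8 species. Per the labels' protocols, organs were frozen on dry ice and total RNA was extracted with a PureLink RNA Mini Kit. The authors deposited 1 table of raw counts per mouse Ensembl gene. The submitters' processing notes name STAR and featureCounts; the sources used here give no version, build, annotation or strand setting. Counts were nearly always even (94.3% to 99.4% of counts from 1 to 20 per library), so floors and intervals used read pairs. Of 16816 genes, 572 had no count.

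Groups were taken from the labels. Each comparison was fitted on all genes with edgeR 4.0.16 (R 4.3.3; TMM, filterByExpr, quasi-likelihood F test), with DESeq2 1.42.0 as an alternative. Other alternatives were upper-quartile factors, no filter, 1 fit of all libraries, a replicate block and 97 fits that each left out 1 library. Intervals are exact at 95%, and the floor is 3 read pairs. The steps were tested on simulated data. Same-numbered samples deviated together, with every correlation above 0.1, between kidney and liver (0.126 to 0.400 in baboon, 0.225 to 0.381 in macaque) and between macaque kidney and cerebellum (0.130 to 0.185), so the numbers pair those samples. No replicates were identical. The labels say no more of how replicates were handled, so p-values measure only the spread between these samples. All 10 genes are named by rule. The genes and lists were chosen with earlier results of these data known.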

Additional observations from a re-analysis of the deposited data

Results flagged for a closer look

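Of 60 gene and group pairs, in groups of 4 to 10 libraries, 6 had a library far from the rest. Chance alone flags about 1 pair in 20 for normally distributed values, a rate not checked for these data, and the pairs share libraries. Macaque cerebellum replicate 3 was far above the other cerebella for Slc34a1, at 0.742 CPM, and for Slc22a6, at 34.1 CPM. Macaque cerebellum replicate 6 was far above the rest for Slc22a8, at 10.4 CPM. Baboon liver replicate 3 was the highest for Cubn, at 0.778 CPM, and baboon liver replicate 1 for Slc22a12, at 0.628 CPM, both close to the level of a few read pairs. Baboon kidney replicate 4 was far below the other baboon kidneys for Miox, at 1609 CPM, and it was also the lowest for 7 more of the genes.

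The kidney-liver difference of Miox was larger in baboon than in macaque by 2.65 on the log2 scale, by an interaction term (adjusted p = 0.0150, edgeR). It was 2.25 with an adjusted p of 0.0552 under a replicate block.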

How the results depend on the processing

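All 40 calls of the 10 genes as higher in kidney than in liver, brain or cerebellum kept their direction and stayed past the threshold in 700 of 700 values from the alternatives. Under a replicate block, 0 genes instead of 1 were called higher for the baboon-macaque difference between kidney and liver. In the macaque liver-cerebellum comparison the block put Slc22a12 at an adjusted p of 0.0733, and it changed no other call. The Slc22a12 call had an adjusted p of 0.0420 in the separate fit (edgeR). In 1 fit of all 48 libraries and with upper-quartile factors it was also lost, with adjusted p of 0.130 and 0.0542. It was lost as well without cerebellum replicate 1, 2, 4 or 5 and without liver replicate 1, 5 or 6. There, each of the 6 cerebella deviated most like the liver of its own number (correlation 0.0646 to 0.129). No called difference changed sign in the alternative fits, though some that were not called did. On the CPM scale, Slc5a2 was lower in liver than in baboon brain, and Slc5a2, Aqp1, Slc34a1 and Slc22a12 were lower in liver than in macaque cerebellum, the opposite of their calls.

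For baboon liver against macaque liver, 1 gene was called higher without the filter, in 1 fit of all 48 libraries and with DESeq2, instead of 0. The fit of all libraries called 3 genes higher for macaque liver against cerebellum (5 in the separate fit), 1 lower for baboon kidney against macaque kidney (2), and 1 lower for beaver liver against primate livers (0). It called 4969 genes over the whole table for baboon liver against macaque liver, against 2961. DESeq2 called 2 genes lower for the kidney-liver interaction (0), 2 lower for beaver liver against the other 7 species (1), 1 lower against primate livers (0), and 3 higher and 1 lower against chipmunk liver (5 and 2). Upper-quartile factors gave 1 lower against chipmunk liver. The causes were not tested.

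Leaving out 1 library at a time, the genes called lower for beaver liver against beaver brain numbered 1 to 2, against primate livers 0 to 1, and against chipmunk liver 1 to 3, with 3 to 4 higher. Over all genes, 5519 and 5522 were called for beaver liver against brain without a brain library, against 8576, with 1 fewer sample in the fit. Beaver groups have 2 libraries, and a lone sample is assumed to vary like the others. Levels under TMM scaling moved by more than 1 SD, or the counting interval, in 68 of 150 gene and group pairs.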
